A study of Mus musculus with 6 samples.

Results

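Iron enters a cell, is stored, is released and is sensed by a small set of proteins, and 10 mouse genes that encode them are described here: Tfrc, Slc11a2 and Slc39a14 for uptake, Fth1 and Ftl1 for storage, Ncoa4 for release from storage, Slc40a1 for export, and Ireb2, Aco1 and Fbxl5 for sensing. They were chosen by name, all 10 were found among the 21741 gene symbols of the deposited tables, and all 10 passed the filter on low counts. RNA was sequenced from primary cardiomyocytes, heart muscle cells taken from mouse heart and kept in culture. The 3 Adv-ABHD11 libraries came from cells given an adenovirus to overexpress ABHD11, a mitochondrial hydrolase, and their genotype is labelled as ABHD11 overexpression. The 3 Adv-NC libraries came from cells given a control adenovirus, and their genotype is labelled WT. Cells of both groups spent 24 h in hypoxia before RNA extraction, so that the only contrast is Adv-ABHD11 over Adv-NC within hypoxia, and cells in normal oxygen were not analysed here. All libraries carry the same batch label. The sources used here do not state the animals' age, the dose of virus or whether replicates were separate cultures, and the p-values therefore measure the spread between these libraries, which may be technical.

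The title of the series names ferroptosis, a cell death that depends on iron and on oxidised lipids. Transferrin-bound iron is taken up with the transferrin receptor (Tfrc) into endosomes, from which the transporter DMT1 (Slc11a2) passes it to the cytosol, and ZIP14 (Slc39a14) imports iron that is not bound to transferrin. Ferritin, a shell of heavy (Fth1) and light (Ftl1) chains, stores the iron, NCOA4 carries ferritin to lysosomes for breakdown, and ferroportin (Slc40a1) exports iron from the cell. When iron is scarce, the iron regulatory proteins IRP1 (Aco1) and IRP2 (Ireb2) bind a hairpin in mRNA, the iron-responsive element. Bound ahead of the coding sequence, as in the ferritin mRNAs, they block translation, and bound behind it, as in the Tfrc mRNA, they protect the mRNA from decay. FBXL5 marks IRP2 for degradation when iron is plentiful.

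These hairpins are shown because they are the known basis of this control. The transcripts of GENCODE M21 (GRCm38, the assembly also called mm10) were searched for a bulged C, 5 paired bases, the loop CAGTGN and the partner bases, with at least 4 of the 5 positions below the bulge also paired. Such an element was found in 30 of 21901 protein-coding genes, which is 0.137%, and in 4 of the 10 members. Capitals mark the bulged C and the loop, the 5 lower-case bases directly before and the 5 directly after the loop form the upper stem, and each sequence is printed in the sense of its mRNA with T for U.
Fth1, chr19:9982732-9982760, plus strand, exon 1, 5′ UTR: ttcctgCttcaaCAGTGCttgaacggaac
Ftl1, chr7:45459779-45459807, minus strand, exon 1, 5′ UTR: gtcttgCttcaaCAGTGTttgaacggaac
Slc40a1, chr1:45925465-45925493, minus strand, exon 1, 5′ UTR: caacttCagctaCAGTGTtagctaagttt
Tfrc element 1, chr16:32631219-32631247, plus strand, exon 19, 3′ UTR: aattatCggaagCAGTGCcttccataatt
Tfrc element 2, chr16:32631598-32631626, plus strand, exon 19, 3′ UTR: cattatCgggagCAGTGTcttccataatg
Tfrc element 3, chr16:32631663-32631691, plus strand, exon 19, 3′ UTR: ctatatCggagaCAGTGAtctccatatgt
Tfrc element 4, chr16:32631710-32631738, plus strand, exon 19, 3′ UTR: aattatCgggaaCAGTGTttcccataatt
The Fth1 and Ftl1 elements have the same upper stem and differ at 3 of 29 bases. The 4 Tfrc elements, all in the last exon, each have their own upper stem. The other 6 members had no match to these letters in their annotated transcripts, which says nothing of elements with other letters.

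The libraries held 16292756 to 19526874 counts with Adv-ABHD11 and 18219251 to 20338700 with Adv-NC, and 12790 genes were tested. In edgeR's quasi-likelihood test at an adjusted p under 0.05, 29.9% of all tested genes were higher and 29.5% lower with Adv-ABHD11, 59.3% together, and the ranges of the groups were apart for 63.2% in CPM, the counts scaled to a common library size after TMM adjustment. Counts on Abhd11 itself were 636, 769 and 736 with Adv-ABHD11 and 584, 675 and 661 with Adv-NC (log2 fold change 0.21, adjusted p = 0.0765). These counts do not show overexpression of the mouse gene, the species and sequence of the viral insert are not stated in the sources used here, and so the labels could not be checked and were taken as given. Transcripts of mtDNA took 4.98% to 7.67% of counts with Adv-ABHD11, the most in replicate 2, and 2.35% to 2.55% with Adv-NC.

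Markers of several cell types moved with the groups, where 29.9% of all tested genes were higher and 29.5% lower. In these bulk samples fewer cells of a type and less RNA per cell cannot be told apart. Of 12 cardiomyocyte markers 11 were higher and 0 lower, and all 12 were detected, with a summed level of 37415 to 39768 CPM with Adv-ABHD11 and 21132 to 22536 CPM with Adv-NC. Macrophages, which recycle iron, were represented by 11 tested markers, of which 2 were higher and 2 lower, with a sum of 82.3 to 93.4 CPM with Adv-ABHD11 and 83.3 to 104.7 CPM with Adv-NC. The macrophage marker Cd163 had 2, 0 and 0 counts with Adv-ABHD11 and 0 in the Adv-NC libraries, and was not tested. Red cell markers were 4 higher and 1 lower of 5, with a sum of 23.3 to 26.6 CPM with Adv-ABHD11 and 2.00 to 3.34 CPM with Adv-NC. Hemgn had 0 counts in all libraries, and Hba-a1, Alas2 and Slc4a1 had 0 counts in the Adv-NC libraries. With Adv-ABHD11 there were 62, 96 and 80 counts of Hba-a1, but only 7, 1 and 7 of Alas2 and 0, 1 and 0 of Slc4a1. Lung epithelial markers were higher for 9 of 9, at 169.4 to 181.7 CPM with Adv-ABHD11 and 18.9 to 26.5 CPM with Adv-NC. Of these markers 6 had 0 counts in the Adv-NC libraries. Among them were Scgb1a1, with 1431, 1599 and 1631 counts with Adv-ABHD11, and Sftpc, with 590, 561 and 618. Endothelial markers were 10 higher and 0 lower of 12, with 707 to 765 CPM with Adv-ABHD11 and 447 to 493 CPM with Adv-NC. Smooth muscle markers were 7 higher and 1 lower of 11, with 6480 to 7118 CPM with Adv-ABHD11 and 4599 to 5201 CPM with Adv-NC. Fibroblast markers went more often down, with 2 higher and 7 lower of 12, at 12992 to 16819 CPM with Adv-ABHD11 and 16634 to 20342 CPM with Adv-NC. Epicardial markers were 1 higher and 7 lower of 9, at 150.3 to 162.0 CPM with Adv-ABHD11 and 317.9 to 347.3 CPM with Adv-NC. Of 8 hepatocyte markers 1 was tested and higher, and their sum was 12.1 to 16.7 CPM with Adv-ABHD11 and 5.34 to 19.1 CPM with Adv-NC. Adv-NC replicate 1 stood apart in them, with 189 counts of Alb, 12 of Fgb, 8 of Serpina1a and 5 of Apoa1, while the other Adv-NC libraries had 0 of each. Without that library 4 iron genes were called higher and 4 lower. Whether the tissue that went into the cultures differed between the groups was not tested. The part of such a difference, or of any cell type, in the results on the iron genes was not tested either.

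With Adv-ABHD11 the mRNAs of both ferritin chains fell, as did those of the transferrin receptor and DMT1, whereas those of ZIP14, NCOA4 and FBXL5 rose, and those of ferroportin and IRP1 did not pass the test. The IRP2 gene Ireb2 was called higher at an adjusted p of 0.0469, with overlapping groups, and kept that call under 7 of 13 alternative settings. That made 4 of 10 members lower, where 29.5% of all tested genes were lower, 4 higher, where 29.9% were, and 2 that did not pass. For 8 members the ranges were apart, beside 63.2% of all tested genes. Log2 fold changes ran from -1.35 for Ftl1 to 0.61 for Slc39a14, with a median of 0.08 beside 0.02 for all tested genes. The ferritin light chain lay low in the whole distribution but far from its lowest value of -11.29. Of the tested genes 4.46% were further down, and 8.90% had a larger change in either direction.

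**Figure D1:**
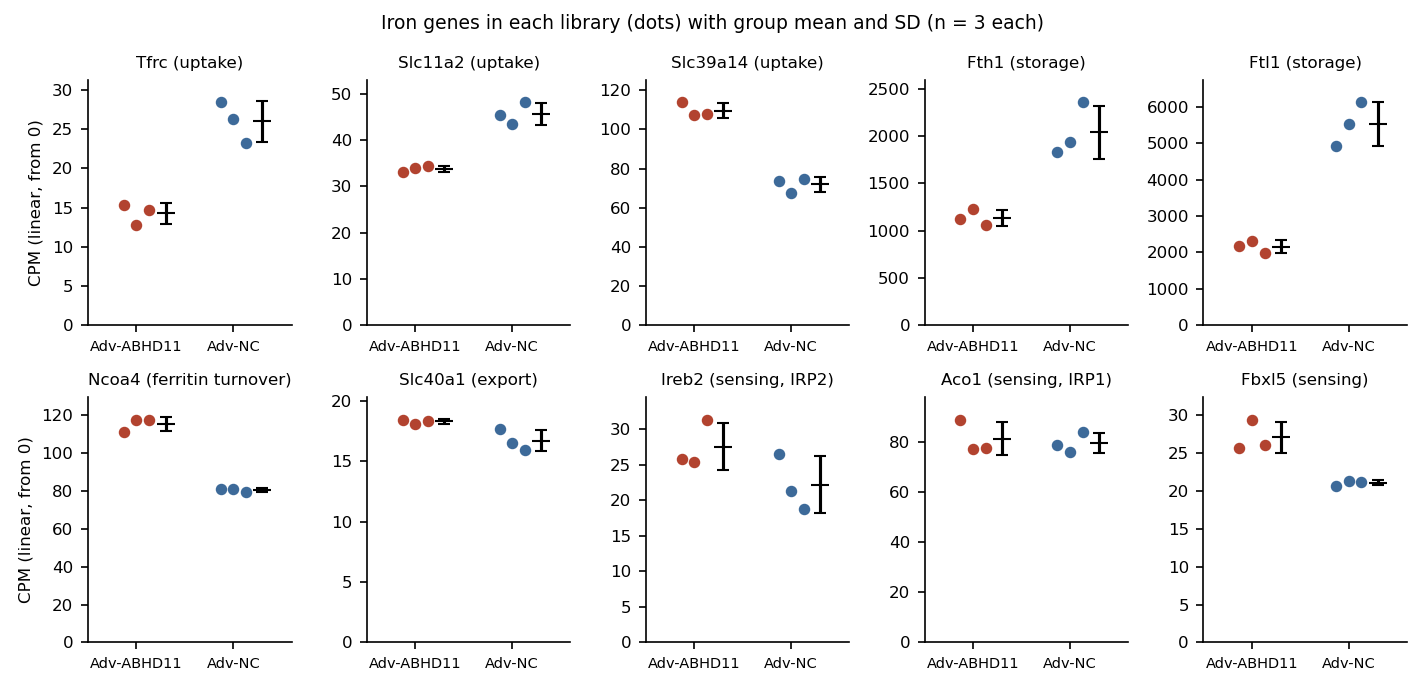
CPM of the 10 iron genes in each library (dots) on linear axes from 0, Adv-ABHD11 on the left and Adv-NC on the right, with the group mean and SD (n = 3 each). The dots of the groups are clear of each other in 8 panels and overlap for Ireb2 and Aco1.

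The largest change among the members was in ferritin. The light chain Ftl1 (ENSMUSG00000050708.16, chromosome 7, 45457944 to 45459884, minus strand) stood at 2182, 2323 and 1977 CPM in the Adv-ABHD11 libraries and at 4915, 5534 and 6130 CPM in the Adv-NC libraries. The highest Adv-ABHD11 library was thus below the lowest Adv-NC library by more than the whole range within either group. Ftl1 fell 2.56-fold, a log2 fold change of -1.35 with a standard error of 0.11 (adjusted p = 1.13e-08). The heavy chain Fth1 (ENSMUSG00000024661.7, chromosome 19, 9980598 to 9985098, plus strand), which carries the iron-oxidising activity of ferritin, had 1118, 1228 and 1060 CPM with Adv-ABHD11 and 1826, 1931 and 2356 CPM with Adv-NC. Again the groups did not overlap, and the Adv-NC libraries were the more spread. Fth1 fell 1.79-fold, by 0.84 on the log2 scale with a standard error of 0.11 (adjusted p = 3.44e-06).

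Every Adv-ABHD11 library had fewer light chain counts per heavy chain count than every Adv-NC library. Within a library, 1.95, 1.89 and 1.86 counts of Ftl1 were found per count of Fth1 with Adv-ABHD11, and 2.69, 2.87 and 2.60 with Adv-NC. This ratio needs no scaling between libraries. It was 1.90 ± 0.0448 with Adv-ABHD11 and 2.72 ± 0.134 with Adv-NC (mean ± SD, n = 3 each), a log2 difference of -0.51. A two-sided exact permutation test gave p = 0.1, and with 3 libraries a group no smaller value can be had. Together the 2 chains took 0.334 ± 0.0157% of all counts with Adv-ABHD11 and 0.744 ± 0.0644% with Adv-NC, again with no overlap (exact permutation test, two-sided, p = 0.1, n = 3 each). Ftl1 shares reads with the near-identical copy Ftl1-ps1, to which 29.8 to 45.9 counts were assigned with Adv-ABHD11 and 88.4 to 114.5 with Adv-NC. Adding them to Ftl1 left its log2 fold change at -1.35. The mitochondrial ferritin Ftmt had 0 counts in all 6 libraries, where a floor of 3 counts allows 0.148 to 0.184 CPM.

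**Figure D2:**
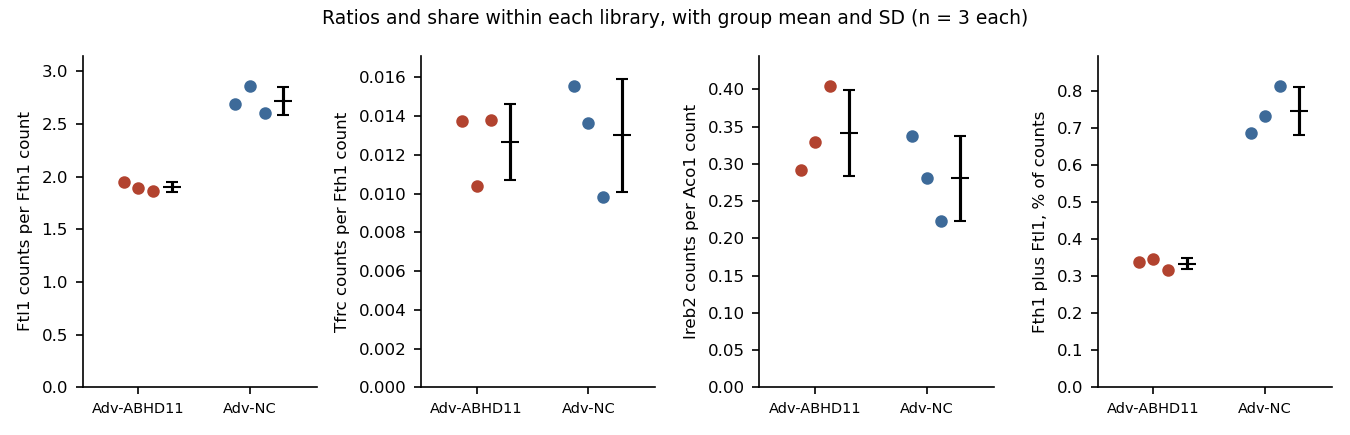
Within-library ratios of counts and the share of counts on ferritin (dots) on linear axes from 0, Adv-ABHD11 left and Adv-NC right, with mean and SD (n = 3 each). The Ftl1 to Fth1 ratio and the ferritin share separate the groups, at 1.86 to 1.95 against 2.60 to 2.87 and at 0.316% to 0.346% against 0.686% to 0.813%, whereas the Tfrc to Fth1 and Ireb2 to Aco1 ratios overlap.

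The mRNA of the ferritin turnover receptor moved the other way from the ferritin mRNAs. Ncoa4 (ENSMUSG00000056234.15, chromosome 14, 32159865 to 32179855, plus strand), the receptor that delivers ferritin to the autophagosome, had 111.2, 117.3 and 117.6 CPM with Adv-ABHD11 and 80.8, 80.9 and 79.3 CPM with Adv-NC. Values within a group lay close together, with a coefficient of variation of 3.13% with Adv-ABHD11 and 1.12% with Adv-NC. Ncoa4 rose 1.44-fold (log2 fold change 0.52 ± 0.083, standard error, adjusted p = 3.20e-05).

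The uptake genes did not move as a group. Tfrc (ENSMUSG00000022797.16, chromosome 16, 32608920 to 32632794, plus strand) had 15.4, 12.8 and 14.7 CPM with Adv-ABHD11 and 28.4, 26.3 and 23.2 CPM with Adv-NC. All Adv-ABHD11 libraries were well below all Adv-NC libraries, and Tfrc fell 1.82-fold (log2 fold change -0.87 ± 0.121, standard error, adjusted p = 8.20e-06). Slc11a2 (ENSMUSG00000023030.16, chromosome 15, 100387898 to 100425072, minus strand) had 33.2, 33.9 and 34.3 CPM with Adv-ABHD11 and 45.5, 43.4 and 48.2 CPM with Adv-NC. The Adv-ABHD11 values were nearly the same in the 3 libraries, with a coefficient of variation of 1.71%, and none reached the Adv-NC range. The overlapping gene Gm5475 on the opposite strand had 0 counts with Adv-ABHD11 and 0, 5 and 0 with Adv-NC. DMT1 mRNA fell 1.35-fold (log2 fold change -0.43 ± 0.094, standard error, adjusted p = 0.000653). Slc39a14 (ENSMUSG00000022094.15, chromosome 14, 70303469 to 70351425, minus strand) had 113.8, 107.2 and 107.7 CPM with Adv-ABHD11 and 73.9, 67.5 and 74.6 CPM with Adv-NC, and every Adv-ABHD11 library was above every Adv-NC library. This carrier of iron that is not bound to transferrin rose 1.52-fold (log2 fold change 0.61 ± 0.086, standard error, adjusted p = 9.38e-06).

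Tfrc and Fth1, the mRNAs of a main uptake and a main storage protein, had log2 fold changes of -0.87 and -0.84. Within a library there were 0.0137, 0.0104 and 0.0138 counts of Tfrc per count of Fth1 with Adv-ABHD11 and 0.0156, 0.0136 and 0.00985 with Adv-NC. The ranges overlapped, and the mean log2 ratio differed by -0.03, a sign that turned on leaving out Adv-ABHD11 replicate 2 (0.109), or from Adv-NC either replicate 1 (0.115) or replicate 2 (0.0193). With all libraries an exact permutation test, two-sided, gave p = 1 (n = 3 each). With 3 libraries a group, a p that misses the threshold does not show that the ratio was equal.

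Export did not pass the test. Slc40a1 (ENSMUSG00000025993.10, chromosome 1, 45908068 to 45926523, minus strand) had 18.5, 18.1 and 18.4 CPM with Adv-ABHD11 and 17.7, 16.5 and 15.96 CPM with Adv-NC. The groups did not overlap, but the lowest Adv-ABHD11 and the highest Adv-NC library were close. The log2 fold change was 0.13 ± 0.113 (standard error, adjusted p = 0.333), and the 95% interval of the fold change ran from 0.928 to 1.29. Among the 3 members with an element in the 5′ UTR, ferroportin mRNA was thus the only one that did not fall in this test.

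Of the sensing genes, Fbxl5 rose, the call of Ireb2 was fragile and Aco1 did not pass. Fbxl5 (ENSMUSG00000039753.16, chromosome 5, 43744615 to 43821638, minus strand) had 25.7, 29.4 and 26.0 CPM with Adv-ABHD11 and 20.7, 21.3 and 21.2 CPM with Adv-NC, so the groups were apart. It rose 1.29-fold (log2 fold change 0.36 ± 0.105, standard error, adjusted p = 0.00673). The annotated gene overlaps Bst1 on the opposite strand, which had 15 to 35 counts with Adv-ABHD11 and 16 to 23 with Adv-NC, far fewer than the 430 to 532 and 383 to 413 counts of Fbxl5.

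Ireb2 (ENSMUSG00000032293.8, chromosome 9, 54863789 to 54912530, plus strand) had 25.9, 25.4 and 31.4 CPM with Adv-ABHD11 and 26.5, 21.3 and 18.8 CPM with Adv-NC. The groups overlapped, since Adv-NC replicate 1 was above 2 of the Adv-ABHD11 libraries. The log2 fold change was 0.31 ± 0.130 (standard error, adjusted p = 0.0469). Scaled by library size alone the adjusted p was 0.0583 and in DESeq2 0.0724, past the threshold. The call was also lost on leaving out Adv-ABHD11 replicate 1 (adjusted p = 0.0508), Adv-ABHD11 replicate 3 (0.281), Adv-NC replicate 2 (0.151) or Adv-NC replicate 3 (0.243), and the log2 fold change was 0.20 without Adv-ABHD11 replicate 3 or Adv-NC replicate 3 and 0.47 without Adv-NC replicate 1. Aco1 (ENSMUSG00000028405.9, chromosome 4, 40143081 to 40198338, plus strand), whose product is a cytosolic aconitase when it holds an iron-sulfur cluster and IRP1 when it does not, had 88.9, 77.2 and 77.5 CPM with Adv-ABHD11 and 78.7, 76.0 and 84.0 CPM with Adv-NC. The groups overlapped and the 95% interval of the fold change ran from 0.894 to 1.16 (adjusted p = 0.801). Counts of Ireb2 per count of Aco1 were 0.291, 0.329 and 0.405 with Adv-ABHD11 and 0.337, 0.281 and 0.224 with Adv-NC, an overlap (exact permutation test, two-sided, p = 0.3, n = 3 each).

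**Figure D3:**
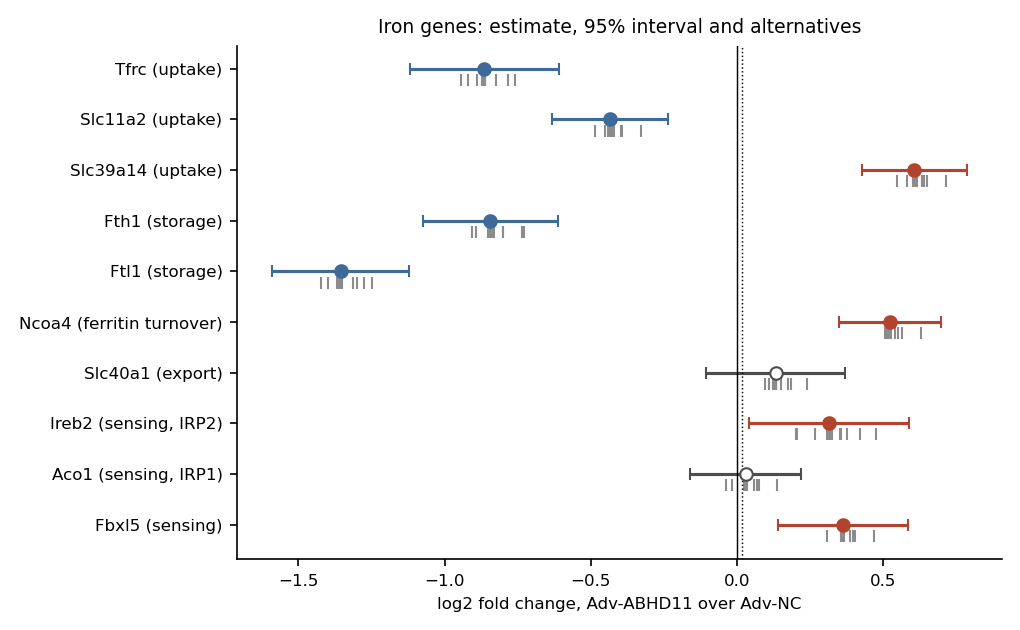
Log2 fold change of each iron gene, Adv-ABHD11 over Adv-NC, with its 95% interval from the edgeR fit, filled where the gene passed and open where it did not. Grey ticks are the values under the alternative settings and with each library left out, and the dotted line is the median of all tested genes at 0.02. Ftl1 at -1.35 lies farthest from 0, and the intervals of Slc40a1 and Aco1 include 0.

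Set against the elements printed above, the 4 members that hold one were lower for 3 (Fth1, Ftl1 and Tfrc) and did not pass for Slc40a1. The 6 without a match, which may still hold elements with other letters, were higher for 4 (Slc39a14, Ncoa4, Fbxl5 and Ireb2). Of these 6, Slc11a2 was lower and Aco1 did not pass. The search also found no match in App, Epas1 or Cdc42bpa, for which an element has been described. A missing match therefore does not mark a gene as one without an element. In mRNA level, Fth1 and Ftl1, with the element ahead of the coding sequence, and Tfrc, with elements behind it, were all lower. Binding ahead of the coding sequence acts on translation, which mRNA counts do not measure. Binding behind it, as in Tfrc, acts on decay, which enters the mRNA level together with transcription, and binding was not measured. Control through the elements was therefore not tested by these directions. Of all 23 tested genes with such an element, the members included, 7 were higher, 10 lower and 6 did not pass, where 29.9% of all tested genes were higher and 29.5% lower. The 10 lower include Ftl1-ps1, the copy that shares reads with Ftl1, so that they are not 10 independent genes. A match in a transcript is a description of its letters and was not tested as a binding site here.

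Levels can be compared between the members only per length, for which CPM was divided by the length of the principal annotated transcript in kb. Ferritin stood far above the rest in both groups, with Ftl1 at 2232 ± 179.8 and Fth1 at 1222 ± 91.7 CPM per kb with Adv-ABHD11, and Ftl1 at 5709 ± 628 and Fth1 at 2194 ± 302 CPM per kb with Adv-NC (mean ± SD, n = 3 each). With Adv-ABHD11 the order went on with Ncoa4 at 28.4 ± 0.888, Slc39a14 at 22.2 ± 0.75, Aco1 at 21.2 ± 1.73, Slc11a2 at 11.2 ± 0.191, Fbxl5 at 9.46 ± 0.719, Slc40a1 at 5.44 ± 0.0619, Ireb2 at 4.77 ± 0.577 and Tfrc at 2.92 ± 0.274 CPM per kb. Among these neighbours Slc39a14 and Aco1, and Slc40a1 and Ireb2, overlapped in their per-library values. With Adv-NC the order was Aco1 at 20.8 ± 1.05, Ncoa4 at 19.8 ± 0.222, Slc11a2 at 15.1 ± 0.789, Slc39a14 at 14.6 ± 0.791, Fbxl5 at 7.36 ± 0.116, Tfrc at 5.31 ± 0.539, Slc40a1 at 4.96 ± 0.263 and Ireb2 at 3.85 ± 0.686 CPM per kb. There Aco1 and Ncoa4, Slc11a2 and Slc39a14, and Tfrc and Slc40a1 overlapped. Tfrc was thus the lowest of the members per length with Adv-ABHD11, while with Adv-NC Ireb2 was lowest. The use of a single transcript per gene limits these levels where several isoforms are expressed.

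Other genes of iron handling were read from lists that hold no member. The counts of calls in these lists, here and in the next paragraphs, stand beside 29.9% higher and 29.5% lower of all tested genes. Among partners of uptake, 1 of 10 tested genes was higher and 5 lower (median log2 fold change -0.19, beside 0.02 for all tested genes). Lrp1, an endocytic receptor that takes up heme bound to hemopexin, had 321.0, 229.9 and 275.9 CPM with Adv-ABHD11 and 679, 473 and 640 CPM with Adv-NC (log2 fold change -1.12, adjusted p = 1.02e-06). The endolysosomal channel Mcoln1, through which iron can leave the lysosome, fell 1.75-fold. The metal reductases of the STEAP family moved both ways, with Steap1 lower 1.96-fold and Steap3, the ferrireductase of the transferrin cycle in red cell precursors, higher 1.66-fold. In the list of iron chaperones and ferritin turnover, 0 of 8 tested genes were higher and 4 lower (median -0.22). Pcbp1, a chaperone that hands iron to ferritin, had 311, 302 and 309 CPM with Adv-ABHD11 and 420, 445 and 455 CPM with Adv-NC, with no overlap (log2 fold change -0.52, adjusted p = 4.13e-05). Its relative Pcbp2 fell 1.25-fold, the autophagy enzyme Atg7 1.42-fold and Bola2, a partner of glutaredoxin in iron chaperoning, 1.30-fold.

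For export and its systemic control, 1 of 8 tested genes was higher and 4 lower (median -0.17). Ferroxidases that load exported iron onto transferrin fell, ceruloplasmin (Cp) with 28.5, 26.8 and 28.1 CPM with Adv-ABHD11 against 59.5, 41.7 and 46.0 CPM with Adv-NC, and hephaestin (Heph) 1.89-fold. Hephl1, a relative of hephaestin, also fell, at 0.120, 0.0553 and 0 CPM with Adv-ABHD11 against 1.08, 0.678 and 1.13 CPM with Adv-NC. The Adv-ABHD11 libraries held 2, 1 and 0 counts of Hephl1, under the floor of 3 counts, so the size of its change is uncertain. Hemojuvelin (Hjv), a co-receptor that raises hepcidin in liver and is also made in striated muscle, rose 2.13-fold, to 34.4, 34.4 and 34.6 CPM with Adv-ABHD11 against 14.8, 17.9 and 15.8 CPM with Adv-NC. The cardiomyocyte markers were higher in the same libraries, as given above. Hepcidin (Hamp), the hormone that closes ferroportin, had 0 counts in the Adv-ABHD11 libraries and 3, 0 and 0 in the Adv-NC libraries, at or under the floor. Its counts lay in Adv-NC replicate 1, the library with the hepatocyte transcripts.

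Among the partners of sensing, 4 of 11 tested genes were higher and 3 lower (median 0.10), beside 29.9% and 29.5% of all tested genes. Skp1, a subunit of the FBXL5 ubiquitin ligase, rose 1.22-fold, and its subunits Cul1 (log2 fold change 0.25, adjusted p = 0.0527) and Rbx1 (0.05, adjusted p = 0.679) did not pass. Of the cytosolic iron-sulfur assembly genes, the scaffold genes Nubp2 and Nubp1 fell 1.92-fold and 1.64-fold, whereas Ciao2b and Ciao2a, of the targeting stage, rose 1.47-fold and 1.34-fold. Nubp2 had 32.5, 33.7 and 30.6 CPM with Adv-ABHD11 and 54.4, 65.7 and 65.3 CPM with Adv-NC. In mitochondria 7 of 19 genes of iron import and iron-sulfur assembly were higher and 5 lower (median 0.12). The assembly genes Isca1 and Bola3 rose 1.72-fold and 1.74-fold, while the ferredoxin Fdx2 fell 1.62-fold. Mitoferrin 1 (Slc25a37), which brings iron into mitochondria, fell 1.87-fold and mitoferrin 2 (Slc25a28) 1.32-fold, and both were picked for naming after their values had been seen.

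Of 10 tested heme genes 1 was higher and 5 lower (median -0.49). The higher gene was Hmox2, with 77.2, 90.4 and 69.4 CPM with Adv-ABHD11 and 56.1, 54.9 and 52.3 CPM with Adv-NC. Its log2 fold change was 0.54 (adjusted p = 0.000171). Hmox1, which frees iron from heme, had 500.2, 517.5 and 477.6 CPM with Adv-ABHD11 and 3849, 3455 and 4650 CPM with Adv-NC, the largest change of these lists that passed the test apart from Hephl1 (log2 fold change -3.00 ± 0.12, standard error, adjusted p = 8.65e-13). The heme exporter Flvcr1 fell 3.73-fold, the lysosomal heme transporter Slc48a1 1.78-fold and the biliverdin reductase Blvrb 1.74-fold. Among 5 tested mRNAs outside the members for which an iron-responsive element has been described, 3 were higher and 1 lower (median 0.45). Epas1, which encodes HIF2-alpha, was 2.42-fold higher and App 1.44-fold lower. Cdc42bpa was 1.36-fold higher, with overlapping groups (adjusted p = 0.0395). Of 8 regulators 1, again Epas1, was higher and 2 were lower (median 0.02). Nfe2l2, which encodes NRF2, an activator of the ferritin and ferroportin genes, had 95.4, 92.3 and 93.7 CPM with Adv-ABHD11 and 140.2, 117.4 and 140.4 CPM with Adv-NC (log2 fold change -0.50, adjusted p = 0.000134). Myc, known to repress Fth1 and to raise Ireb2, fell 3.85-fold. Bach1, a repressor of the ferritin genes (log2 fold change -0.31, adjusted p = 0.124), and Hif1a, an activator of Tfrc (0.06, adjusted p = 0.66), did not pass.

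**Figure D4:**
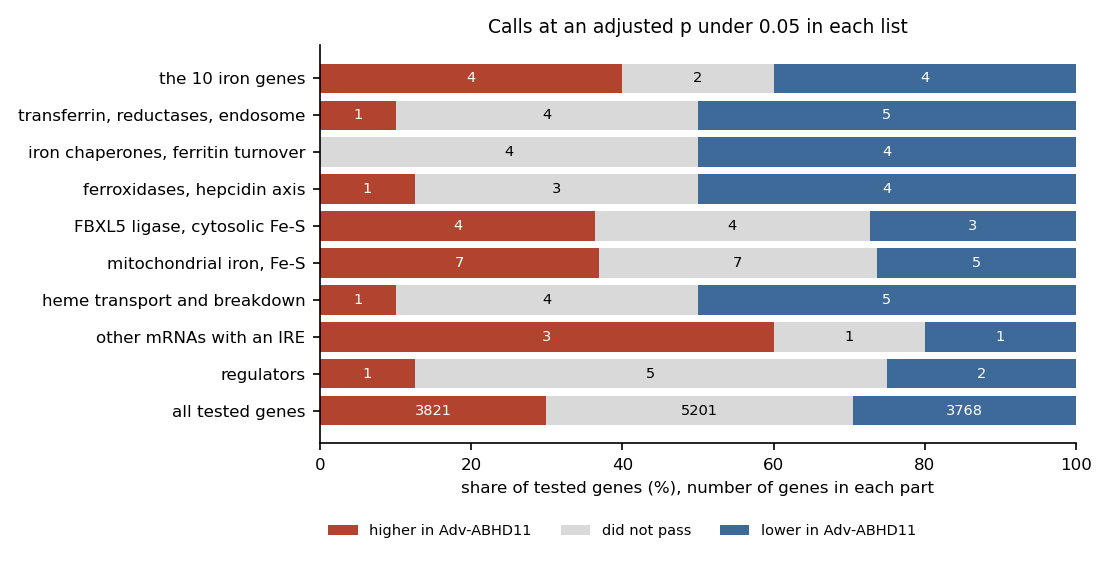
Share of tested genes (x axis, %) that were higher, did not pass or were lower with Adv-ABHD11 in the 10 iron genes, in 8 further lists and among all tested genes, with the number of genes printed in each part. The lower part takes 4 of 10 in the iron genes, beside 29.5% of all tested genes. It takes 5 of 10 in the uptake and heme lists and 4 of 8 in the lists of iron chaperones and of ferroxidases.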

How the data were processed

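For 6 libraries the authors deposited 1 expected count per gene, before any scaling by depth. The submitters' processing notes name Trimmomatic 0.39, HISAT2, RSEM, DESeq2 and mm10 without their roles. Annotation, read filters and strandedness are not stated in these sources. Of the genes above 0, 8.96% to 10.2% per library had a fractional value, among them Ftl1 and Ftl1-ps1, near-identical copies between which reads could be divided. Counts were rounded to whole numbers, and 22 rows that repeated a symbol with fewer counts were left out.

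Groups were compared with edgeR 4.0.16 (R 4.3.3) with filterByExpr (minimum count 10, minimum total count 15), TMM scaling, the quasi-likelihood F test and Benjamini-Hochberg adjustment over all tested genes. Adjusted p-values in the text come from this fit unless another tool is named. The standard error is the log2 fold change divided by the square root of F. Ratios within libraries were compared by exact permutation. The procedure was tested on simulated data. Coordinates, transcripts and lengths are those of GENCODE M21. Replicates of a group differed by more than sampling noise (chi-square per gene 8.94 to 23.4). Alternatives were DESeq2 1.42.0, voom in limma 3.58.1, upper-quartile scaling, library size only, other filters, a replicate block, ferritin copies added and each library left out. Intervals of fold changes come from the fit, and floors cover counting error only. Lists and members were chosen with earlier results of these data known. The text names all members and, from each further iron list, at most 4 called genes taken in order of adjusted p. Skp1, Cul1, Rbx1, Bach1, Hif1a, Hmox2, Slc25a37, Slc25a28, Hamp and Ftmt were added after their values were seen. Some genes that this rule takes in are not reported here. Older symbols were matched through RefSeq synonyms (GRCm38.p6).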

Additional observations from a re-analysis of the deposited data

How the results depend on the processing

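The directions and calls of Fth1, Ftl1, Tfrc, Slc11a2, Slc39a14, Ncoa4 and Fbxl5 were the same under every alternative run, and Slc40a1 and Aco1 passed under none. Members higher numbered 3 or 4 and members lower 4 throughout. Ireb2 passed under 7 of 13 alternatives. The cause of its lost calls was not tested. Aco1 turned sign with libraries left out, with log2 fold changes from -0.0395 to 0.0735. Upper-quartile scaling moved the median of all tested genes by 0.107, to 0.124, and all log2 fold changes are relative to the TMM scaling. With a library left out, the difference in the log2 Tfrc to Fth1 ratio ran from -0.215 to 0.115, in the Ftl1 to Fth1 ratio from -0.546 to -0.476, in the Ireb2 to Aco1 ratio from 0.138 to 0.434 and in the ferritin share from -0.439 to -0.375 percentage points. With the replicate block, 4 members were higher and 4 lower and all tested genes came to 3932 higher and 3906 lower, so it changed no call of a member. Same-numbered libraries correlated at 0.0102, 0.204 and -0.104 in their deviations from the group means, and 1 of 3 Adv-ABHD11 libraries correlated best with its own number, so the numbers were not taken as pairs. Hamp and Ftmt were too low for a comparison at this depth.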

Other observations

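Within both groups the library with the most ferritin had the least transferrin receptor. Adv-ABHD11 replicate 2 had the highest Fth1 (1228 CPM) and Ftl1 (2323 CPM) of its group and the lowest Tfrc (12.8 CPM) and Ireb2 (25.4 CPM). Adv-NC replicate 3 had the highest Fth1 (2356 CPM) and Ftl1 (6130 CPM) and the lowest Tfrc (23.2 CPM) and Ireb2 (18.8 CPM). The reverse did not hold throughout, since Adv-ABHD11 replicate 3 had the least Fth1 (1060 CPM) and Ftl1 (1977 CPM) of its group but less Tfrc (14.7 CPM) than replicate 1 (15.4 CPM). These orders were noticed after the values were seen, rest on 3 libraries a group and were not tested. Between the groups, by contrast, Fth1, Ftl1 and Tfrc were all lower with Adv-ABHD11.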
